A study of Rattus norvegicus with 4 samples.

Results

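The potassium channel genes of the rat were followed in cultured cortical neurons with less CMTR1. Members were the gene probes whose array name starts with Kcn and whose signal stood well above background on 2 or more of the 4 arrays, with the brightest probe standing for each gene. This gave 80 genes among the 30364 gene names tested on the array. They were drawn from 113 probes and 86 names. The 6 names that did not pass the background filter were Kcna7, Kcne3, Kcnj1, Kcnj13, Kcnj5 and Kcnq1. Of the members, 77 were well above background on all 4 arrays, Kcnj15 and Kcnj8 on 3, and Kcne4 on the 2 arrays of slide 2. No member passed the filter through 1 group alone.

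Potassium channels let potassium leave or enter the cell along its gradient, and in neurons they set the resting potential, end the action potential and limit repetitive firing. The voltage-gated (Kv) family opens on depolarisation, the calcium- and sodium-activated channels respond to ions that enter during firing, the inward rectifiers pass current best near rest, and the two-pore channels carry leak current. Pores assemble from several subunits, and auxiliary subunits change their gating and placement.

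The shCM1 group held 2 arrays of neurons infected with a lentivirus carrying an shRNA against Cmtr1, the cap methyltransferase that acts on the first transcribed nucleotide of messenger RNA. The shCTL group held 2 arrays of neurons given a control shRNA in the same way. In both groups the neurons came from the cortices of Sprague Dawley embryos of both sexes at E18.5, were infected at day 2 in vitro and harvested at day 7, and 2 independent experiments were made. The shRNA sequences were not used here, so loss of CMTR1 and other effects of the shRNA cannot be told apart. Each slide carried 1 array of each group, with replicate 1 on slide 1 and replicate 2 on slide 2. Levels are log2 signals of a probe relative to the 75th percentile of its array, and differences are shCM1 minus shCTL on that log2 scale. A level describes 1 probe and was not compared between genes. Differences carry the standard error (SE) of the limma fit without a block (n = 2 arrays per group). Cmtr1 itself had levels of -3.46 and -3.53 in shCM1, against -1.43 and -1.86 in shCTL, which placed it at 27.7% of shCTL. The groups did not overlap for Cmtr1. Its adjusted p was 1 in limma without a block and 1.36e-07 once slides entered as a block (Benjamini-Hochberg over all genes).

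Probe sequences are shown for Kcna1 and Kcnma1, because a difference on this array belongs to the stretch that the probe reads. Each is set beside a probe named only by description, and both of those probes passed the slide-blocked test below. They do not stand for the 20 members with several probes past the background filter. The first 30 of each 60 bases are given in lower case, as the scanner files list them, and positions are those of the whole probe on rn4. For Kcna1, the Kv1.1 pore, the member probe lay at chr4:163012003-163012062 on the minus strand. A further probe, which the array names only through a description of KCNA1, lay at chr4:163011052-163011111 on the same strand. For Kcnma1, the pore of the large-conductance calcium-activated (BK) channel, the member probe lay at chr15:950209-950268 on the plus strand. A probe described as splice variant 2 of that gene spanned chr15:939949-942255, a distance longer than the probe itself.
Kcna1 member probe: gtaactgcaccgcaactgatcaaaactgcg
KCNA1 by description: ggtaagcatgtttgaatccgataacattta
Kcnma1 member probe: aaagtcagacaatgttcactgtcaaggaaa
Kcnma1 splice variant 2: gcgacaaacagaatgcaacaaggatgacta

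Of the 6 genes that passed the slide-blocked test below, a RefSeq promoter window (GRCr8, 250 bases before to 50 after the start) was at hand for Kcnj6, which encodes a subunit of the G protein-gated inward rectifier. It lay at chr11:47778299-47778598 on the minus strand, and the capitals mark a GC box.
Kcnj6 promoter: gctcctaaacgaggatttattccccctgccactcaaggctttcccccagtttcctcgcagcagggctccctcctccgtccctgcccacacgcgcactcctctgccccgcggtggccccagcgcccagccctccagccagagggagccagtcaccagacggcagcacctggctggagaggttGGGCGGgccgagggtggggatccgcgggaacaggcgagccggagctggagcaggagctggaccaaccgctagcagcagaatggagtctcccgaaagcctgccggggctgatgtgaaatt
The GC box was searched as GGGCGG or CCGCCC, which covers both strands. It was found in 50.8% of the 59 windows of the 54 members that matched by symbol and in 33.1% of all 33469 windows. The TATA box was searched as TATAAA or TTTATA and was found in 0 of the 59 member windows and 14.2% of all windows. The base at the annotated start, where CMTR1 would act on a transcript that began there, was G in 42.4%, A in 28.8%, C in 20.3% and T in 8.5% of member windows. Over all windows it was G in 30.5%, A in 28.9%, C in 24.1% and T in 16.5%. Of the windows joined to a RefSeq gene, 57.8% had their start at the start of that gene, and start sites were not measured in these neurons. These matches describe the annotation and were not set against the differences.

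No potassium channel gene passed an adjusted p of 0.05 in limma without a block, and none of the 30364 genes did (0.0%). At an unadjusted p under 0.05 in that fit there were 3 members, Kcna1 and Kcnh3 among them, and 3.0% of all genes. With the slide as a block, 1 member was higher in shCM1 (1.25% of members, where 3.7% of all genes were called higher) and 5 were lower (6.25%, where 3.05% of all genes were called lower). The gene higher in shCM1 was Kcna1, and Kcnh3, Kcnj6 and Kcng1 were among those lower. In either direction that was 6 of 80, where 6.74% of all genes were called, and the other 74 did not pass in either fit. At an unadjusted p under 0.05 the blocked fit held 19 members, where 22.7% of all genes did so. Without the intensity trend in the variance prior, the blocked limma fit called 0 members and 0.0% of all genes, with 14 members and 16.8% of all genes at an unadjusted p under 0.05. Over the members the median difference was 0.04, beside 0.08 over all genes. By slide the member median was 0.10 in slide 1 and -0.04 in slide 2, beside 0.09 and 0.06 over all genes. Of the 80 members, 74 lay within 0.5 of 0, a count not set beside one for all genes.

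Kcnh3, an ELK-type voltage-gated pore of the forebrain, had levels of 1.06 and 0.80 in shCM1, against 1.53 and 1.44 in shCTL. The groups did not overlap. Its difference was -0.55 (SE 0.17), with a blocked adjusted p of 0.00153 in limma. Kcnj6 had levels of -0.85 and -1.18 in shCM1, against -0.51 and -0.60 in shCTL. Both shCM1 arrays were the lower ones, and the slide 2 array was the lowest. Its difference was -0.46 (SE 0.19; blocked limma adjusted p = 0.021), and without shCM1 replicate 2 it was -0.30.

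Kcng1 encodes a silent subunit, which forms no channel alone and modifies Kv2 channels. Its levels were -0.72 and -0.48 in shCM1, against -0.45 and 0.01 in shCTL. The shCM1 slide 2 array and the shCTL slide 1 array nearly met. The difference was -0.38 (SE 0.23; blocked limma adjusted p = 0.0498), and it was -0.14 without shCTL replicate 2 and -0.61 without shCTL replicate 1.

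Kcna1, a low-threshold Kv1 pore of axons, was the member higher in shCM1. Its levels were 1.28 and 1.32 in shCM1, against 0.76 and 0.85 in shCTL. Both shCM1 arrays lay above both shCTL arrays, and the difference was 0.52 in slide 1 and 0.47 in slide 2. It came to 140.6% of shCTL (limma with the slide as a block, adjusted p = 0.00395). The probe named by its KCNA1 description, outside the membership rule, had levels of -1.80 and -1.48 in shCM1, against -2.69 and -1.73 in shCTL. Its groups overlapped, as the shCM1 slide 1 array lay just below the shCTL slide 2 array. Its difference was 0.57 (SE 0.35), with 0.89 in slide 1 and 0.25 in slide 2 (blocked limma adjusted p = 0.0238).

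**Figure D1:**
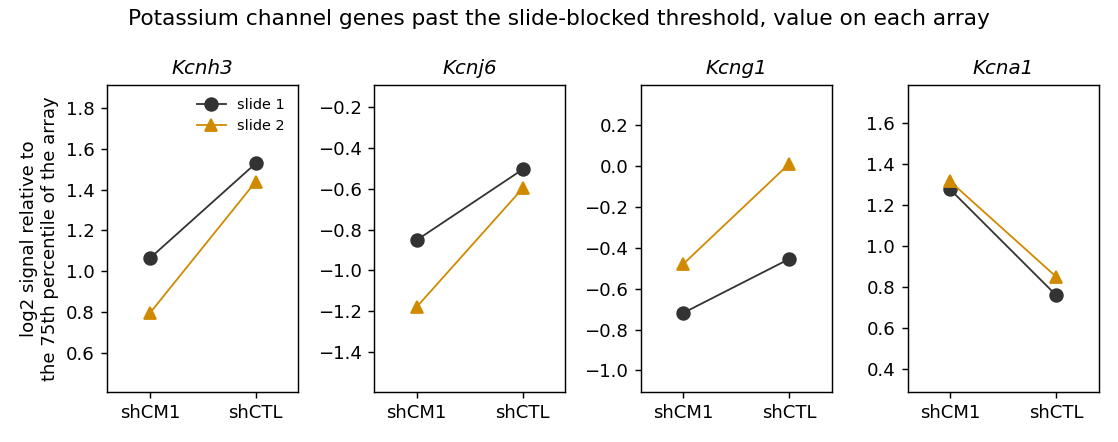
The 4 panels plot Kcnh3, Kcnj6, Kcng1 and Kcna1, which passed the slide-blocked test, each with its log2 signal relative to the 75th percentile of the array for shCM1 (left) and shCTL (right), circles for slide 1, triangles for slide 2 and a line joining the arrays of a slide; all panels span the same range of log2 units. Kcnh3, Kcnj6 and Kcng1 were lower in shCM1 within both slides, and Kcna1 was higher in shCM1 within both.

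These genes differed in how they stood under other scalings of the same arrays. Kcnh3 and Kcna1 passed the blocked test in all 5 scalings (the 75th percentile, quantile, cyclic loess, normexp background and the authors' value table). Kcnj6 passed in 3 and Kcng1 in 1. In either direction the blocked fit called 4 members under quantile scaling (3.12% of all genes), 3 under cyclic loess (2.44%), 6 under normexp (4.66%) and 3 in the authors' value table (2.26%). Other filters and probe rules gave 7 members with probes well above background on all 4 arrays (7.26% of all genes), 3 with no filter (1.07%) and 6 with the mean of all probes (4.85%). Kcnv1, a silent subunit with a blocked adjusted p of 0.0505 in limma, passed in 1, the normexp background. The direction was the same in all 5 for 62 of the 80 members. The normexp setting adds an offset of 50 to each signal, which narrows the log2 differences of dim probes.

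Within slides, 27 members (33.8%) were higher in shCM1 in both, beside 44.0% of all genes, and 21 (26.2%) were lower in both, beside 22.6%. The other 32 (40.0%) had opposite signs in the slides, beside 33.5% of all genes. The groups did not overlap for 17 higher members (21.2%, where 21.6% of all genes did so) and 11 lower members (13.8%, where 10.1% did). In both slides a change of 1.5-fold or more was seen in 1 higher member, Kcne4, and 1 lower member, each 1.25% of members, beside 1.79% and 0.619% of all genes. The mean of the slides differed by more than the shRNA groups in 48 of 80 members (60.0%), beside 62.7% of all genes.

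**Figure D2:**
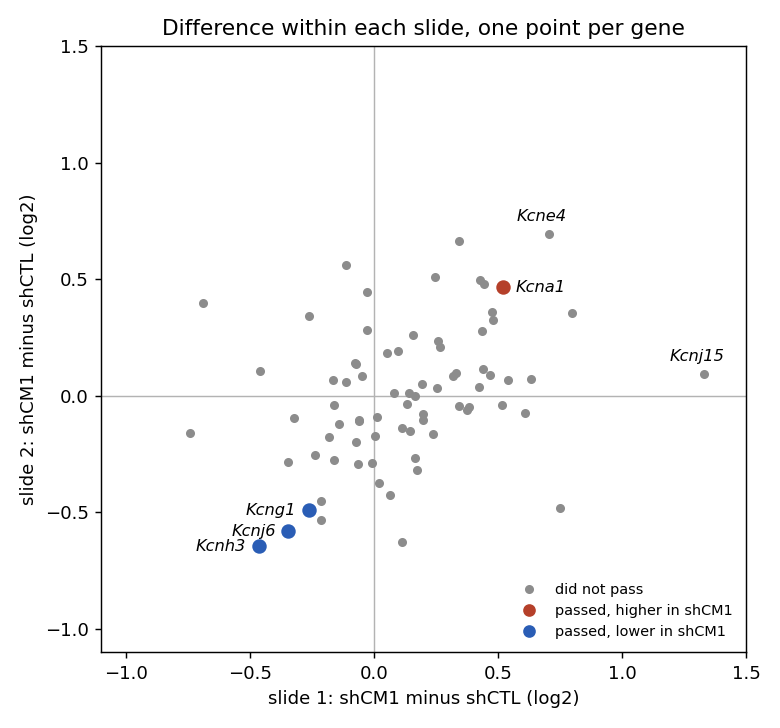
The horizontal axis gives the log2 difference shCM1 minus shCTL within slide 1 and the vertical axis the same within slide 2, with 1 point for each of 76 potassium channel genes. Kcnh3, Kcnj6 and Kcng1 in blue were lower in shCM1 in both slides, Kcna1 in red was higher in both, and grey genes did not pass the slide-blocked test.

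Kcne4, an auxiliary subunit of the MinK-related group, had levels of -6.22 and -3.68 in shCM1, against -6.92 and -4.37 in shCTL. The slide 2 arrays were far above the slide 1 arrays in both groups, so the groups overlapped. It was well above background only on slide 2. Its difference was 0.70 (SE 1.14, blocked limma adjusted p = 0.143), with 0.71 in slide 1 and 0.69 in slide 2. It turned to -0.58 without shCTL replicate 1 or to -0.57 without shCM1 replicate 2. Without either of the other arrays it came to 1.97. These fits had no block, so leaving out 1 array unbalanced the slides between the groups. The other members of the group were Kcne1 at 0.27 and Kcne2 at 0.14, neither of which passed.

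Probe brightness moved with the differences over the whole array. The 40 dimmer members had a median difference of 0.15 with 26 positive and 0 calls. The 40 brighter ones had a median of -0.02 with 19 positive and all 6 calls, 1 higher and 5 lower. Over all genes split at the same level, the median was 0.18 for the 17237 dimmer genes and -0.01 for the 13127 brighter ones. In the same blocked fit, 3.92% of the dimmer genes were called higher and 0.79% lower, and 3.41% of the brighter genes were called higher and 6.01% lower. The part of brightness in the members' differences was not tested.

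**Figure D3:**
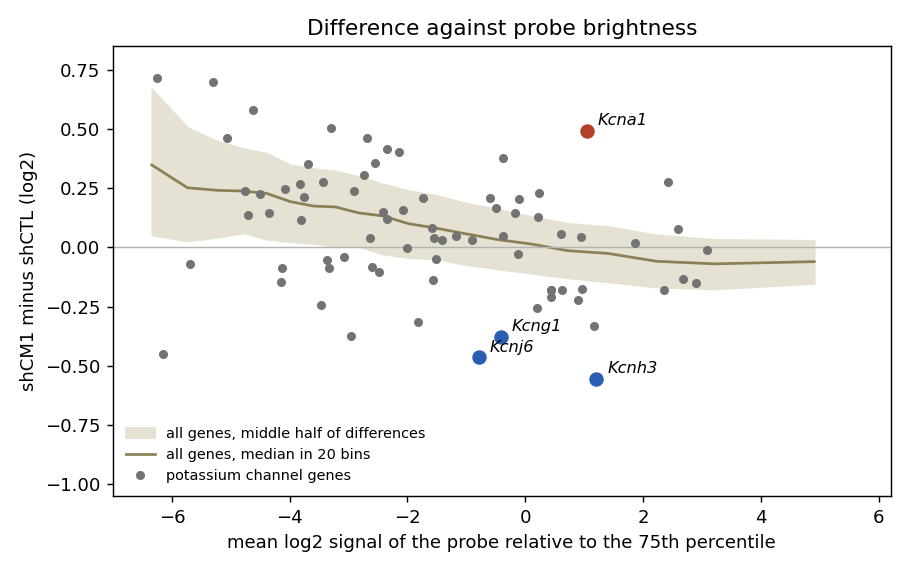
The horizontal axis gives the mean log2 signal of the probe relative to the 75th percentile of the arrays, and the vertical axis gives the log2 difference shCM1 minus shCTL; points are 76 potassium channel genes, with those that passed the slide-blocked test in colour, and the line and band are the median and the quartiles over all genes in 20 bins of brightness. The line declines from dim to bright probes, and Kcnh3, Kcnj6 and Kcng1 lie below the band while Kcna1 lies above it.

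Among the Kv1 pores, 6 of 7 members were higher in shCM1 within both slides, where 44.0% of all genes were, and the median was 0.25. Besides Kcna1 these were Kcna3 (0.46), Kcna10 (0.28), Kcna5 (0.25), Kcna4 (0.23) and Kcna6 (0.08), none of which passed. The slides differed, with a Kv1 median of 0.42 in slide 1 and 0.09 in slide 2, beside 0.09 and 0.06 over all genes. In slide 2, Kcna6 differed by 0.01, Kcna4 by 0.04 and Kcna10 by 0.09. Kcna5 differed there by 0.23, Kcna1 by 0.47 and Kcna3 by 0.50. Under quantile scaling the dim Kcna10 and Kcna5 differed by 0.12 and 0.05, while Kcna3 differed by 0.33, Kcna4 by 0.23 and Kcna6 by 0.14. Kcna3 is also a channel of immune cells and microglia. Its levels were -2.52 and -2.39 in shCM1, against -2.94 and -2.88 in shCTL, and its blocked limma adjusted p was 0.0607. The groups did not overlap. Kcna2, which joins Kcna1 in axonal channels, gave -0.26 with opposite signs in the slides, 0.11 and -0.63. In RefSeq, Kcna5, Kcna1 and Kcna6 follow each other on chromosome 4, as do Kcna3, Kcna2 and Kcna10 on chromosome 2, so that the first trio shared a direction and the second did not. A probe described as KCNA3 but outside the rule differed by 0.13.

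Kcnb2, a pore of the delayed rectifier, differed by -0.10, and Kcnq5, a pore of the slow Kv7 type, by -0.14, and neither passed. A probe described as KCNQ3, another Kv7 pore, had levels of 0.91 and 0.85 in shCM1, against 0.98 and 1.28 in shCTL. Its groups did not overlap, and it differed by -0.25 (SE 0.18; blocked limma adjusted p = 0.161).

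Kcnd1 and Kcnd2 form the Kv4 pores of the fast transient current. Kcnd1 had levels of 0.32 and 0.36 in shCM1, against 0.64 and 0.45 in shCTL, a difference of -0.21 (SE 0.16; blocked limma adjusted p = 0.247). The shCM1 arrays were the lower ones. Kcnd2 had levels of 3.20 and 2.94 in shCM1, against 3.09 and 3.08 in shCTL, a difference of -0.01 (SE 0.16). The shCM1 arrays lay on either side of the shCTL arrays. KChIP subunits, which bind Kv4 pores, gave Kcnip4 at 0.40, Kcnip2 at 0.21, Kcnip1 at 0.21 and Kcnip3 at -0.15.

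Kcnip4 had levels of -2.05 and -1.82 in shCM1, against -2.53 and -2.15 in shCTL, and its groups did not overlap (SE 0.22; blocked limma adjusted p = 0.0754). Kcnip1 had levels of -1.78 and -1.5 in shCM1, against -1.75 and -1.94 in shCTL, and its shCM1 slide 1 array lay between the shCTL arrays. Kcnip3, also known as a calcium-binding transcriptional repressor, had levels of 2.90 and 2.73 in shCM1, against 2.91 and 3.02 in shCTL. Its second probe differed by 0.09, the opposite sign.

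Kcnc1 and Kcnc2 encode Kv3 pores, which repolarise fast-spiking neurons, and neither passed. Kcnc1 had levels of -0.41 and -0.42 in shCM1, against -0.80 and -0.38 in shCTL, a difference of 0.17 (SE 0.21). The shCTL slide 1 array stood below the other 3. Kcnc2 had levels of -3.78 and -3.40 in shCM1, against -3.54 and -3.14 in shCTL, a difference of -0.25 (SE 0.26), and it ranged from -0.05 to -0.45 when 1 array was left out.

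The 10 silent Kv subunits had a median of 0.12. After Kcng1, Kcnv1 differed by -0.33 and Kcns2 by 0.42, with blocked limma adjusted p of 0.0505 and 0.0736. Kcnv1 had levels of 1.05 and 0.96 in shCM1, against 1.26 and 1.41 in shCTL. Kcns2 had levels of -2.09 and -2.19 in shCM1, against -2.57 and -2.55 in shCTL. Neither gene's groups overlapped, and neither passed. Kcng2 had levels of -2.00 and -2.70 in shCM1, against -2.34 and -2.65 in shCTL, a difference of 0.15 (SE 0.29), and its 2 other probes differed by -0.04 and -0.07. The remaining members were Kcnv2 (0.24), Kcng4 (0.16), Kcng3 (0.12), Kcns1 (0.12), Kcns3 (-0.05) and Kcnf1 (0.00).

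The Kv beta subunits, which bind the inner face of Kv1 channels, had opposite signs in the slides in all 3 cases. Kcnab1 had levels of -3.18 and -3.02 in shCM1, against -3.19 and -2.93 in shCTL, a difference of -0.04 (SE 0.21), while its other probe differed by 0.41. Kcnab2 had levels of -3.17 and -3.57 in shCM1, against -3.17 and -3.39 in shCTL, a difference of -0.09 (SE 0.24). The groups overlapped for both. Kcnab3 had levels of -4.36 and -4.09 in shCM1, against -3.67 and -4.48 in shCTL, a difference of -0.15 (SE 0.35). Its 2 shCTL arrays enclosed the shCM1 arrays.

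Of the 8 EAG, ERG and ELK genes, Kcnh3 alone passed and the median was 0.03. The others were Kcnh8 (0.46), Kcnh7 (0.21), Kcnh6 (0.13), Kcnh4 (0.04), Kcnh1 (0.02), Kcnh5 (-0.05) and Kcnh2 (-0.22). Of the other ELK genes, Kcnh8 differed by 0.44 and 0.48 in the slides and by 0.11 with the normexp background, and Kcnh4 had opposite signs in the slides (-0.26 and 0.34) and turned to -0.08 under quantile scaling. Whether these genes differ from Kcnh3 was not tested.

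**Figure D4:**
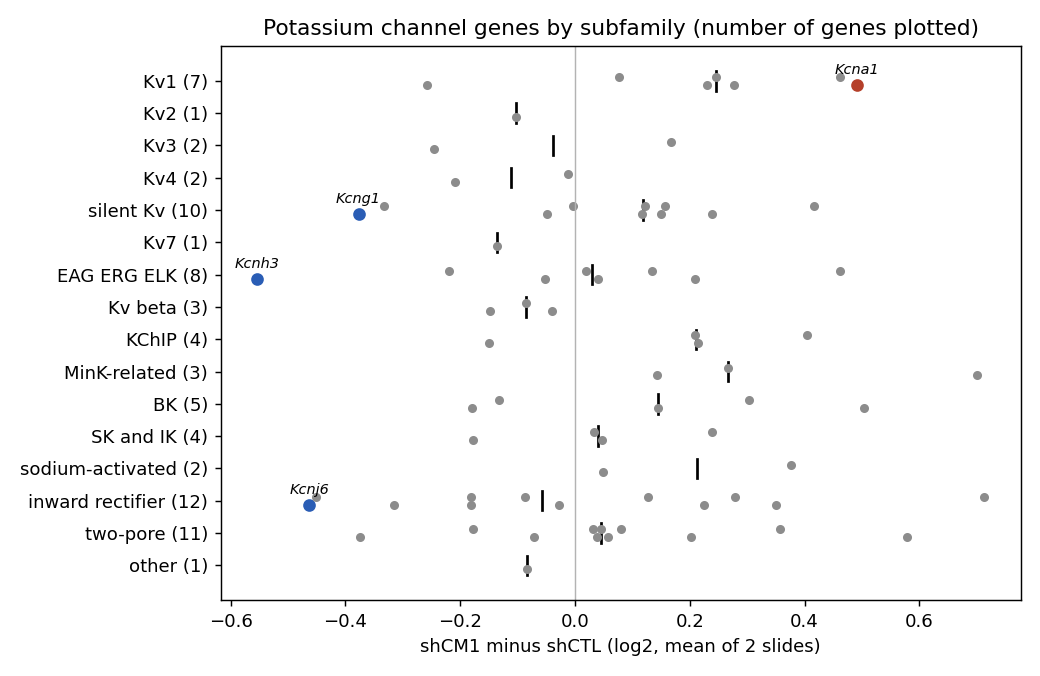
The horizontal axis gives the log2 difference shCM1 minus shCTL, the mean of the 2 slides, and rows are the 16 subfamilies with the number of genes plotted in parentheses, 76 in all; each point is a gene, the bar is the median of the points in its row and coloured points passed the slide-blocked test. Of the genes plotted, Kcnh3 lies furthest to the left at -0.55, and 6 of the 7 Kv1 genes lie right of 0, where the median over all genes was 0.08.

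No BK or SK and IK channel gene passed the blocked limma fit, and 1, Kcnmb1, had an unadjusted p under 0.05 there. Of the BK genes, Kcnmb1, a beta subunit best known from smooth muscle, had levels of -3.13 and -2.95 in shCM1, against -3.48 and -3.61 in shCTL, a difference of 0.50 (SE 0.21; blocked limma adjusted p = 0.0732). Its groups did not overlap. Kcnmb3 had levels of -2.43 and -2.76 in shCM1, against -2.97 and -2.82 in shCTL, a difference of 0.30 (SE 0.21). Its slide 1 arrays were further apart than its slide 2 arrays. Kcnmb2 differed by 0.14 and Kcnmb4, the neuronal beta subunit, by -0.13. With the normexp background Kcnmb1 differed by 0.26.

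The pore gene Kcnma1 differed by -0.18 on its member probe and by -0.16 on its other probe, and the groups overlapped on both. The probe described as splice variant 2 had levels of 1.33 and 0.93 in shCM1, against 1.67 and 1.42 in shCTL. Its groups did not overlap, and its difference was -0.42 (SE 0.20; blocked limma adjusted p = 0.0125). The other probes described as this alpha subunit and outside the rule differed by -0.15 and -0.13 (blocked limma adjusted p = 0.525 and 0.641). The splice variant 2 probe was singled out after its values were seen, and its difference from the member probe was not tested.

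Among the small- and intermediate-conductance channels, which open on calcium alone, Kcnn1 had levels of 0.76 and 0.99 in shCM1, against 1.22 and 0.89 in shCTL. Its groups overlapped, and its difference was -0.18 (SE 0.19). Kcnn4, the intermediate-conductance channel known from immune cells, had levels of -2.70 and -2.89 in shCM1, against -2.96 and -3.10 in shCTL, a difference of 0.24 (SE 0.20). Both shCM1 arrays lay above both shCTL arrays, and it did not pass. Kcnn2 differed by 0.05 and Kcnn3 by 0.03.

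The sodium-activated pore Kcnt1 had levels of -0.39 and 0.03 in shCM1, against -0.64 and -0.48 in shCTL. Here too the groups were apart, and its difference was 0.38 (SE 0.21; blocked limma adjusted p = 0.0512). It was 0.17 without shCM1 replicate 2 and 0.58 without shCM1 replicate 1. Kcnt2 had levels of -0.63 and -0.08 in shCM1, against -0.76 and -0.04 in shCTL, a difference of 0.05 (SE 0.32), and the slides stood apart in both groups.

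The 12 inward rectifiers had a median of -0.06, with 3 higher and 5 lower in both slides. Among the G protein-gated subunits, which assemble with each other, Kcnj6 was lower while Kcnj3 differed by 0.28 and Kcnj9 by -0.03. Kcnj3 had levels of 2.51 and 2.62 in shCM1, against 2.07 and 2.51 in shCTL, and its blocked limma adjusted p was 0.0867. Its lowest shCM1 and highest shCTL arrays nearly met, and its difference was 0.06 without shCTL replicate 1 and 0.50 without shCTL replicate 2. Its other probe differed by 0.55 and a probe described as GIRK1, the name of its product, by 0.49 (blocked limma adjusted p = 0.0701). Kcnj9 had levels of 0.00 and -0.28 in shCM1, against 0.12 and -0.34 in shCTL, and its other probe differed by 0.05.

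The ATP-sensitive pores were Kcnj11 at -0.18, the same in both slides, and Kcnj8 at -0.45. Kcnj8, known from vascular mural cells, was dim, was well above background on 3 arrays, and differed by 0.08 with the normexp background. The strong rectifiers Kcnj4 and Kcnj12 differed by -0.32 and -0.18, and Kcnj2 by 0.22. The glial channel Kcnj10 differed by -0.09 and its partner Kcnj16 by 0.35. Kcnj14 differed by 0.13. Kcnj15, the dim neighbour of Kcnj6 on chromosome 11, differed by 0.71, with 1.33 in slide 1 and 0.09 in slide 2, and did not pass. It was 0.13 with the normexp background and 0.41 under quantile scaling, and it ranged from 0.36 to 1.07 when 1 array was left out.

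The two-pore leak channels had no call among 11 and a median of 0.05. Kcnk18 had levels of -4.19 and -4.48 in shCM1, against -4.99 and -4.83 in shCTL, a difference of 0.58 (SE 0.27; blocked limma adjusted p = 0.143), and 0.19 with the normexp background. Kcnk4, a mechanically gated member, had levels of -3.08 and -3.23 in shCM1, against -2.87 and -2.69 in shCTL, a difference of -0.37 (SE 0.20; blocked limma adjusted p = 0.157), and -0.22 with that background. The groups overlapped for neither. Kcnk6 had levels of -1.65 and -1.42 in shCM1, against -1.89 and -1.26 in shCTL, a difference of 0.04 (SE 0.26), and its other probe differed by -0.05. The acid-sensitive Kcnk3 differed by 0.36, Kcnk12 by 0.20, Kcnk1 by 0.08, Kcnk10 by 0.06, Kcnk13 by 0.05, Kcnk5 by 0.03, Kcnk15 by -0.07 and Kcnk2 by -0.18. Kcnrg, a regulator that binds Kv tetramerisation domains, had levels of -2.83 and -2.45 in shCM1, against -2.77 and -2.35 in shCTL, a difference of -0.08 (SE 0.25).

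Of 24 listed partners and modulators of potassium channels 22 were measured, 0 were higher and 2 were lower in the blocked limma fit, where 3.7% of all genes were called higher and 3.05% lower, and the median was 0.01. Abcc9, the sulphonylurea receptor that pairs with Kcnj8, had levels of -5.24 and -5.77 in shCM1, against -4.61 and -4.32 in shCTL. The groups did not overlap, and the difference was -1.04 (SE 0.34, blocked limma adjusted p = 0.0248). With the normexp background it was -0.24, but the signals of 13.6 to 37.8 lay below the offset of 50 in that setting. Calm2 and Calm3, calmodulin genes whose product binds Kv7 and small-conductance channels, differed by -0.05 and -0.10 and did not pass. Partners of the genes above that did not pass included Amigo1 (0.31), an adhesion protein of Kv2 channels, and Abcc8 (0.29), the partner of Kcnj11. Lgi1 (0.25) and Cntnap2 (0.24), which belong to axonal Kv1 complexes, did not pass either. Nor did the Kv4 partners Dpp6 (0.06) and Dpp10 (-0.20). From the same list, Cntn2 (-0.17), Adam23 (-0.02), Dlg1 (-0.03), Dlg2 (0.05) and Dlg4 (0.13) did not pass.

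Genes that return potassium to the cell gave 1 call in each direction among 11, beside the same 3.7% higher and 3.05% lower of all genes. Atp1b1, a beta subunit of the sodium-potassium pump, had levels of 7.33 and 7.19 in shCM1, against 7.01 and 6.86 in shCTL, a difference of 0.32 (SE 0.12; blocked limma adjusted p = 0.0086). Atp1b2, the beta subunit best known from glia, had levels of 5.63 and 5.26 in shCM1, against 5.98 and 5.89 in shCTL, a difference of -0.48 (SE 0.16; adjusted p = 0.00093). The groups overlapped for neither. Slc12a5, the neuronal potassium-chloride cotransporter, differed by -0.01. By the same naming rule, other channel families had in the blocked fit 0 calls among 4 Hcn genes, 1 higher and 2 lower among 14 Scn genes, and 1 higher and 1 lower among 26 Cacn genes. These counts stand beside 3.7% of all genes called higher and 3.05% called lower. By name the Scn genes include Scnm1, which encodes no channel subunit and was not called.

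Markers of several cell types were called in the same blocked fit, in which 3.7% of all genes were called higher and 3.05% lower. Of 11 measured inhibitory neuron markers 5 were higher and 0 lower in the blocked limma fit, with a median of 0.40, and of 6 excitatory markers 0 were higher and 2 lower, Neurod6 among them. Of 8 general neuron markers 0 were higher and 1, Tubb3, was lower, with a median of -0.12. Of 10 measured microglial markers 5 were higher and 0 lower. Of 5 fibroblast markers 2 were higher, among them Dcn at 0.86, and 0 lower, with a median of 0.54. Of 9 oligodendrocyte lineage markers 2 were higher and 1 lower, and of 10 endothelial and pericyte markers 1, Pdgfrb at 0.62, was higher and 0 lower. Of 8 astrocyte markers 0 were called and 1 had an unadjusted p under 0.05 in that limma fit. The summed linear level of the microglial list, relative to the 75th percentile signal, was 3.37 and 2.36 in shCM1, against 2.15 and 1.80 in shCTL. For the excitatory list the sum was 24.93 and 23.91 in shCM1, against 30.03 and 28.01 in shCTL, and for the inhibitory list 325.8 and 187.7 in shCM1, against 280.4 and 179.7 in shCTL. The fibroblast sum was 1.679 and 2.008 in shCM1, against 1.502 and 1.491 in shCTL, and the endothelial and pericyte sum was 15.1 and 11.2 in shCM1, against 15.3 and 14.5 in shCTL. The oligodendrocyte sum was 45.2 and 57.3 in shCM1, against 50.4 and 58.6 in shCTL, and the astrocyte sum was 129.0 and 127.6 in shCM1, against 117.8 and 128.0 in shCTL. For general neuron markers the sum was 260.7 and 194.1 in shCM1, against 281.0 and 216.0 in shCTL. A linear sum weighs the brightest probes most, Sst in the inhibitory list and Notch3 in the endothelial and pericyte list. Neither of these was called. Cx3cr1 was not well above background on 1 array, Pecam1 and Lum were well above it only on slide 2, and Pvalb and Itgam did not pass the filter. In these bulk cultures fewer cells of a type and less RNA per cell cannot be told apart, and the part of cell makeup in the channel differences was not tested.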

How the data were processed

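Total RNA of 4 rat cortical neuron cultures, 2 shCM1 and 2 shCTL, was labelled with Cy3 and hybridised to single-colour Agilent arrays. Per the file headers, the deposited scanner files are output of Agilent Feature Extraction 10.7.3.1 with linear intensity values, and the processed signal had been background-corrected by that software. The authors' deposited value table holds linear intensity values with a normalization that no source used here states, and it served only as an alternative. Between 84.0% and 90.4% of gene probes were well above background, and 0 gene spots were saturated. Precision is limited by the number of arrays.

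Spots marked as feature outliers were left out, spots of a probe were averaged, and log2 signals were centred on the 75th percentile of each array. Kept were probes well above background on 2 or more arrays, with the brightest probe for each array name. Names are those of the array design, and all 80 members matched a RefSeq symbol of GRCr8. Probe positions are on rn4, per the file headers. The comparison of shCM1 with shCTL used limma 3.58.1 under R 4.3.3, with an intensity trend in eBayes, two-sided tests, and p-values adjusted by Benjamini-Hochberg over 30364 genes at a threshold of 0.05. With 2 arrays against 2, an exact permutation test cannot go below 0.33.

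The fit with the slide as a block is given beside the fit without it. Per the file headers, replicate 1 of both groups shared slide and scan 1 and replicate 2 of both shared slide and scan 2. Across genes, arrays with the same number deviated from their group means together (correlation 0.713), and the leading principal component, with 65.3% of the variance, separated the slides. The labels do not tie slides to the 2 independent experiments. The prior held 18.7 degrees of freedom in the blocked fit, so its p-values draw mainly on the spread that genes of similar brightness share. On simulated data (30359 genes), the blocked fit recovered 22 of 50 genes changed by 0.5 on the log2 scale and 42 of 50 changed by 1. There were 7 false calls among all, and the fit without a block recovered 0 of 50 at each size. The simulated noise was normal, with each gene's spread taken from the blocked fit and the slide shift included. These counts therefore hold only where that variance model is true, and they do not measure the error rate on the real arrays.

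Members and lists were chosen with earlier results of these data known. Given with every array were the members past either threshold, those at least 1.5-fold apart within both slides, the 2 members with the smallest p in each subfamily without such a gene, and those whose probes disagreed in sign or by over 1.5-fold; a few of these genes are not reported here, but they stay in all counts. Other members were accounted for by subfamily, and those given more detail were picked after their values were seen.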

Additional observations from a re-analysis of the deposited data

How the results depend on the processing

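With the replicate block, the count of potassium channel genes called was 1 higher and 5 lower, against 0 and 0 without it. Combined with the block, other settings gave these counts: quantile 1 higher and 3 lower, cyclic loess 1 and 2, normexp 1 and 5, the authors' deposited values 1 and 2, the filter on all 4 arrays 1 and 6, no filter 1 and 2, and the mean of all probes 2 and 4. Settings without the block, and the block without the intensity trend, called 0. At least 1.5-fold within both slides, the higher count of 1 was 0 under quantile, cyclic loess, normexp, the authors' value table and the filter on all 4 arrays, and the lower count of 1 was 0 under the mean of all probes. A fold of 1.2 gave 9 higher and 5 lower, and a fold of 2 gave 0 and 0. Cmtr1 passed only with the block, at -1.85 with either filter or the mean of probes, -1.97 under quantile, -1.97 under cyclic loess, -1.22 under normexp and -1.98 in the authors' value table; the block without the intensity trend gave an adjusted p of 0.254. Of the named genes without a call, some near 0 turned sign: Kcnab2 to 0.0554 and Kcnrg to 0.0085 under normexp, Kcnd2 to 0.0502 under quantile, 0.0471 under cyclic loess and 0.0512 in the authors' values, and Kcnk6 to -0.0319, -0.0339 and -0.0326 under those 3. Under the mean of all probes Kcnab1 turned to 0.19, Kcnj9 to 0.0116 and Kcnk6 to -0.0057. Leaving out 1 array gave ranges that crossed 0, of -0.17 to 0.0923 for Kcnab1, -0.28 to 0.11 for Kcnab2, -0.56 to 0.26 for Kcnab3, -0.043 to 0.38 for Kcnc1, -0.14 to 0.12 for Kcnd2, -0.58 to 1.97 for Kcne4, -0.20 to 0.50 for Kcng2, -0.26 to 0.20 for Kcnj9, -0.28 to 0.35 for Kcnk6, -0.30 to 0.13 for Kcnrg and -0.31 to 0.41 for Kcnt2. The fits that left out 1 array had no block, so the slides were then unbalanced between the groups. Within slides Kcne4 differed by 0.71 and 0.69 and Kcnrg by -0.06 and -0.10, while Kcnab3 had opposite signs (-0.69 and 0.40). The cause of the other turns was not tested. Dim probes limit what can be read, and the normexp offset of 50 narrows their log2 differences. The normexp background moved the difference by over 1.5 times or turned it in 42 of 80 members. Of these, 39 were well above background on all 4 arrays. Leaving out 1 array, in fits without the block, did so in 68 of 80.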
